A study of Mus musculus with 12 samples.

Results

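The levels of 10 genes that encode nucleolar ribosome biogenesis factors were followed in 3T3-L1 cells, a mouse line of embryonic fibroblast origin that behaves as preadipocytes and forms fat cells in culture. The genes were Fbl, Ncl, Nop56, Nop58, Dkc1, Gar1, Nhp2, Nolc1, Npm1 and Polr1a, taken as the rows whose name equals one of these symbols. All 10 were found among the 39423 genes of the count table and in the FPKM table. The cells had been transfected with a control siRNA (siCtrl, labelled NC) or an siRNA against PRMT1 (siPRMT1), grown to confluence and induced with DMI (dexamethasone, 3-isobutyl-1-methylxanthine and insulin, written MDI in the labels). RNA was sequenced after 24 h (day 1, the stage of mitotic clonal expansion) and 72 h (day 3, the differentiation stage), with 3 libraries in each of the 4 conditions. All libraries come from this single line under the same cocktail, and the siPRMT1 libraries carry a transient knockdown, not a deletion. The labels do not say whether the 3 libraries of a condition were separate cultures, so p-values measure the spread between these libraries, which may be technical.

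Ribosome biogenesis starts in the nucleolus, where RNA polymerase I transcribes the precursor of the ribosomal RNAs. Box C/D particles carry the methyltransferase fibrillarin (Fbl) with the scaffold proteins Nop56 and Nop58 and add methyl groups to ribose. Box H/ACA particles carry the pseudouridine synthase dyskerin (Dkc1) with Gar1 and Nhp2 and convert uridine to pseudouridine. Nolc1 is a chaperone that binds both kinds of particle, nucleolin (Ncl) and nucleophosmin (Npm1) are abundant nucleolar phosphoproteins that bind RNA and preribosomes, and Polr1a is the largest subunit of RNA polymerase I. PRMT1 is the main enzyme that makes asymmetric dimethylarginine, and the glycine- and arginine-rich stretches of fibrillarin, nucleolin and Gar1 belong to the kind of sequence that arginine methyltransferases modify. RNA sequencing measures transcript levels and gives no information on such modification.

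The libraries held 15116462 to 42357137 counts. Prmt1 itself stood at 82.9, 83.4 and 91.3 FPKM in siCtrl and at 43.8, 38.6 and 41.4 FPKM in siPRMT1 at day 1, and at 111, 120 and 140 against 62, 71.7 and 68.5 FPKM at day 3. The knockdown libraries therefore kept 48.1% of the mean siCtrl FPKM at day 1 and 54.5% at day 3. Preadipocyte and mesenchymal markers were detected in each group, with Col1a2 the highest. The summed FPKM of 9 adipocyte markers ran from 169 to 178 at day 1 and from 2909 to 3153 at day 3 in siCtrl, and from 130 to 145 and from 2293 to 2468 in siPRMT1. The 10 markers of blood, vascular, epithelial and muscle cells summed to 2.34 to 9.56 FPKM, and 2 to 5 of them had no count in a condition. One library stood apart: siCtrl day 1 replicate 3 differed from the other two of its group by a chi-square of 30.8 and 50.6 per gene, against 4.14 to 15.8 in the 10 other replicate pairs. The members' values in the comparisons that use it are given with and without it. In such bulk libraries fewer cells of a type and less RNA per cell cannot be told apart.

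FPKM, the counts scaled to gene length and library total, spanned more than an order of magnitude among the 10 genes. In siCtrl at day 1, Npm1 had the highest mean at 450 ± 87.7 FPKM (SD, n = 3). Nop56 followed at 134 ± 8.22, and Gar1 was lowest at 24 ± 1.91. All 10 means lay between the 87.5th and the 99.7th percentile of the genes with a count. Ncl, Fbl and Nhp2 (94.1, 87.1 and 82.2 FPKM) overlapped with their neighbour in this order, as did Nolc1 with Nop58 and Dkc1 with Gar1. Npm1 and Nop56 kept the first and second rank in each of the 4 conditions, although Nop56 overlapped with Nhp2 in siCtrl at day 3, and Polr1a, Dkc1 and Gar1 kept the last ranks. Nhp2 rose from the fifth rank at day 1 to the third at day 3 with either siRNA. The gene length behind the FPKM of Ncl, 8706 bases, merges all annotated exons of the gene and enters that FPKM. Together the 10 genes took 0.252% to 0.313% of all counts at day 1 and 0.336% to 0.408% at day 3. On the FPKM scale, 9 of the 10 had their lowest mean in siCtrl at day 1, the exception being Npm1. After TMM scaling to CPM, 7 did.

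**Figure D1:**
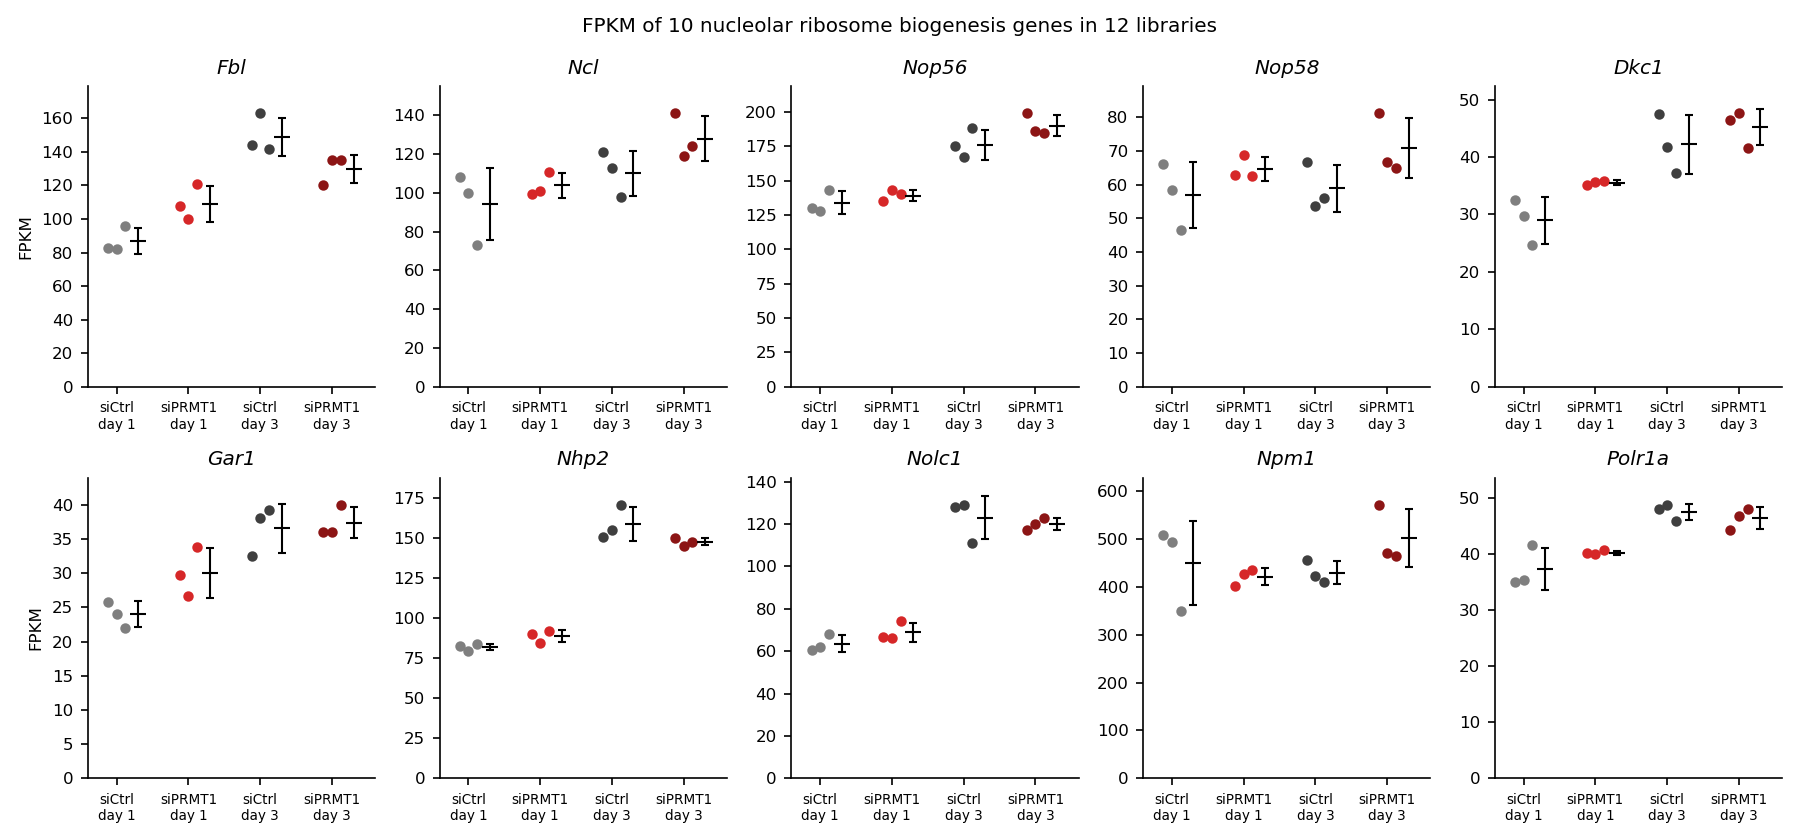
FPKM (y axis, from 0) of each of the 10 genes in the 12 libraries. Points are libraries, ordered by replicate number within a condition, and the black mark is the mean with the SD of the 3. Nhp2 and Nolc1 lie at 60.3 to 92.3 FPKM at day 1 and at 111 to 171 at day 3, whereas the low Ncl, Nop58 and Npm1 values at day 1 come from siCtrl replicate 3.

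The first question was whether the knockdown changed these transcripts during mitotic clonal expansion. At day 1 no member passed the test (edgeR's quasi-likelihood test, Benjamini-Hochberg adjusted p under 0.05 over 13689 genes), nor did any with DESeq2. Of all genes, 3.22% were higher and 4.38% lower in siPRMT1 by this rule. At an unadjusted p under 0.05, 2 members were higher, Fbl and Gar1, and none was lower, where 11.8% of all genes were higher and 12.8% lower by that rule. The median log2 fold change of the 10 was 0.08, against 0.01 over all genes, and the values ran from -0.15 to 0.28. The CPM of the 2 groups did not overlap for 2 members, Fbl and Dkc1, and for 31.5% of all genes.

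The methyltransferase gene Fbl stood at 82.9, 82.4 and 96 FPKM in siCtrl and at 108, 99.8 and 121 FPKM in siPRMT1 at day 1. All 3 knockdown libraries lay above the 3 controls, at a log2 fold change of 0.28 (95% CI 0.07 to 0.49, edgeR adjusted p = 0.102). Gar1 stood at 25.8, 24.1 and 22 against 29.7, 26.6 and 33.9 FPKM. Its knockdown libraries also lay above the controls on this scale, at a log2 fold change of 0.27 (95% CI 0.02 to 0.52, edgeR adjusted p = 0.165). Dkc1 stood at 32.6, 29.8 and 24.6 against 35.1, 35.7 and 35.9 FPKM, without overlap and with a narrow spread in siPRMT1. Its log2 fold change was 0.24 (95% CI -0.00 to 0.48, edgeR adjusted p = 0.207), and 0.13 without siCtrl day 1 replicate 3. The intervals of Nop56 (-0.13 to 0.15), Nhp2 (-0.09 to 0.22), Nolc1 (-0.09 to 0.23) and Polr1a (-0.11 to 0.23) bound a change on the log2 scale within 0.25 in either direction.

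Npm1, Ncl and Nop58 were set by the library that stood apart. Npm1 had 507, 494 and 349 FPKM in siCtrl and 402, 426 and 436 in siPRMT1, so that the third control lay below, and the other two above, all knockdown libraries. With it, the log2 fold change was -0.15 (edgeR adjusted p = 0.551). Without siCtrl day 1 replicate 3, Npm1 was lower in siPRMT1 at -0.31 (edgeR adjusted p = 5.6e-04) and Fbl was higher at 0.35 (edgeR adjusted p = 0.0032), while Ncl turned from 0.09 to -0.07 and Nop58 from 0.13 to -0.00. Gar1 was then at 0.20, Polr1a at 0.14, Nolc1 at 0.11, Nhp2 at 0.07 and Nop56 at 0.06, none of which passed. The same omission raised the genes called from 441 higher and 599 lower to 2047 and 2086. With library totals in place of TMM the split was 540 higher and 368 lower, with no member passing.

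At day 3 again no member passed the test in the 14039 genes tested, nor did any with DESeq2, where 7.54% of all genes were higher and 8.94% lower in siPRMT1 by edgeR. At an unadjusted p under 0.05, 3 members were higher, Ncl, Nop58 and Npm1, and 1, Fbl, was lower, where 15.3% of all genes were higher and 15.9% lower by that rule. The median of the 10 was 0.06, against 0.01 over all genes. The CPM of the 2 groups did not overlap for 2 members, Npm1 and Fbl, and for 34.9% of all genes. Fbl stood at 144, 163 and 142 FPKM in siCtrl and at 120, 135 and 135 in siPRMT1. The knockdown libraries thus lay below the controls, opposite to day 1, at a log2 fold change of -0.21 (95% CI -0.37 to -0.04, edgeR adjusted p = 0.0797). Npm1 stood at 456, 423 and 409 against 571, 471 and 464 FPKM, all 3 knockdown libraries above the controls, at 0.22 (95% CI 0.04 to 0.40, edgeR adjusted p = 0.0898). Nop58 stood at 66.9, 53.8 and 56.1 against 81.2, 66.9 and 65 FPKM, which overlapped, at 0.26 (95% CI 0.06 to 0.47, edgeR adjusted p = 0.0745). The first knockdown library was the highest of the 12 for Npm1, Nop58 and Ncl. These day 3 calls lay near the threshold: with no filter on low counts Ncl, Nop58 and Npm1 passed as higher, and without siCtrl day 3 replicate 1 or siPRMT1 day 3 replicate 3 Nop58 did, at 0.35 and 0.32.

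**Figure D2:**
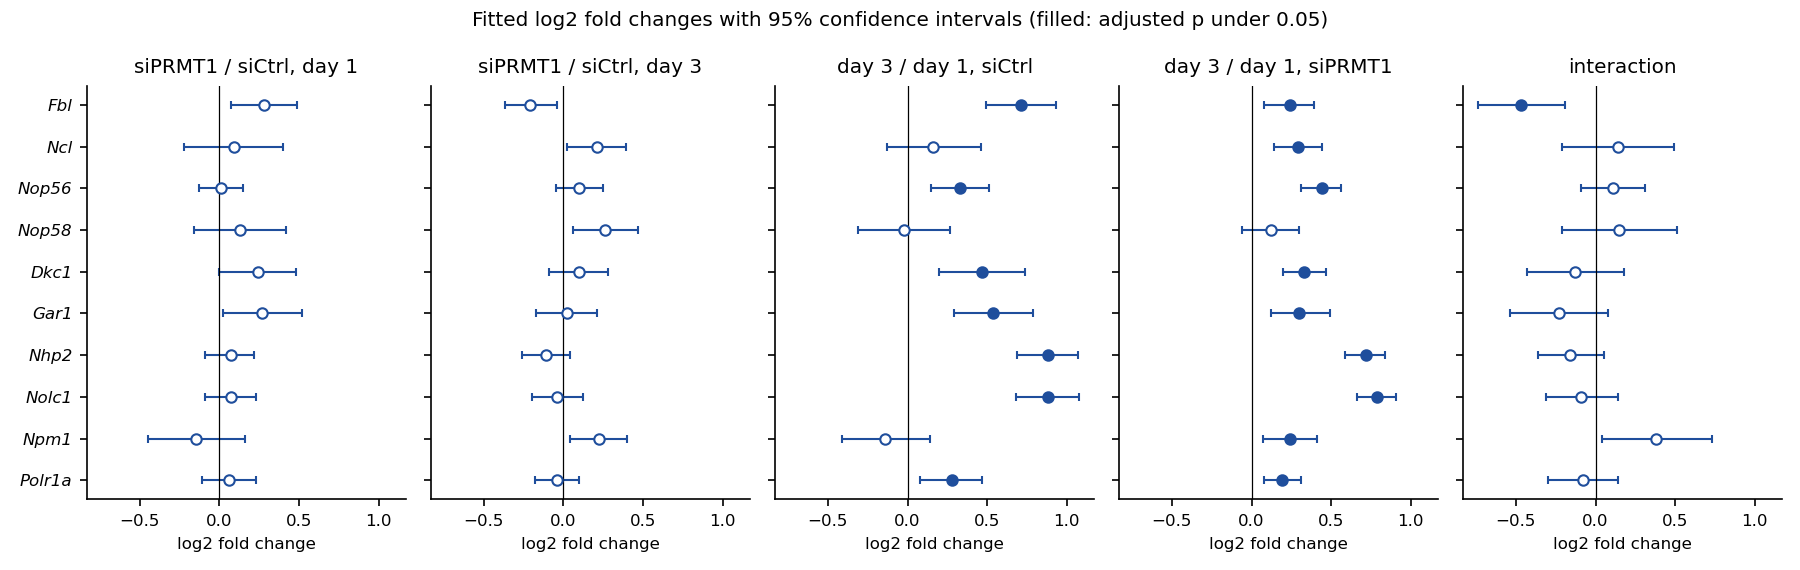
Fitted log2 fold change (x axis) of each gene (rows) in the 5 comparisons, with 95% confidence intervals. Filled points had an adjusted p under 0.05. No point is filled in either knockdown comparison, 7 are filled for day 3 against day 1 in siCtrl, 9 in siPRMT1, and Fbl alone in the interaction.

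The second question was how the transcripts moved from clonal expansion to differentiation. In siCtrl, 7 of the 10 genes rose from day 1 to day 3 and none fell, where 30.2% of 13829 genes were higher and 28.7% lower at day 3. The CPM of the 2 days did not overlap for the same 7, and for 64.4% of all genes. The median log2 fold change of the 10 was 0.40, against -0.00 over all genes. The largest rises were those of Nhp2 and Nolc1, which were both 1.84-fold higher. Nhp2 went from 82.9, 79.9 and 83.9 FPKM to 151, 155 and 171, a log2 fold change of 0.88 (95% CI 0.69 to 1.07, edgeR adjusted p = 1.3e-05). Nolc1 went from 60.3, 62 and 68.1 to 128, 129 and 111 FPKM, also 0.88 (95% CI 0.68 to 1.08, edgeR adjusted p = 1.7e-05). In both genes every day 3 library lay far above every day 1 library.

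The genes of both other H/ACA proteins rose too. Gar1 was 0.54 higher (95% CI 0.29 to 0.79, edgeR adjusted p = 0.002), and Dkc1 went from 32.6, 29.8 and 24.6 to 47.5, 41.8 and 37.2 FPKM, at 0.47 (95% CI 0.20 to 0.74, edgeR adjusted p = 0.0076). The box C/D genes split. Fbl rose from 82.9, 82.4 and 96 to 144, 163 and 142 FPKM, at 0.71 (95% CI 0.49 to 0.93, edgeR adjusted p = 1.6e-04). Nop56 rose from 130, 128 and 143 to 175, 167 and 188 FPKM, at 0.33 (95% CI 0.15 to 0.51, edgeR adjusted p = 0.005). Nop58, the partner of Nop56 in the same particle, had 66.1, 58.3 and 46.5 FPKM at day 1 and 66.9, 53.8 and 56.1 at day 3, which overlapped, at -0.02 (95% CI -0.31 to 0.27, edgeR adjusted p = 0.9). Polr1a had the smallest value that passed, 0.28 (95% CI 0.08 to 0.47, edgeR adjusted p = 0.0223), and lost the call in 5 of the 6 fits that left out 1 library (0.20 to 0.26), keeping it only without siCtrl day 1 replicate 3 (0.36). Dkc1 lost it in 2, without siCtrl day 3 replicate 1 (0.34) and without siCtrl day 3 replicate 2 (0.41). Ncl, at 0.16, and Npm1, at -0.14, did not pass. Without siCtrl day 1 replicate 3 the same 7 genes passed as higher, and Npm1 was lower at day 3, at -0.30 (edgeR adjusted p = 9.4e-04). Nolc1 was then at 0.93, Nhp2 at 0.89, Fbl at 0.78, Gar1 at 0.47, Nop56 at 0.38 and Dkc1 at 0.35, while Ncl was at 0.00 and Nop58 at -0.15.

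In siPRMT1, 9 of the 10 genes rose from day 1 to day 3 and none fell, where 32.2% of 14224 genes were higher and 31.2% lower. The CPM of the 2 days did not overlap for these 9, and for 66.6% of all genes. Nop58, at 0.12 (95% CI -0.06 to 0.30), was the gene that did not pass. The median of the 10 was 0.30, against 0.00 over all genes. Nolc1 went from 66.5, 66 and 74 to 117, 120 and 123 FPKM, at 0.79 (95% CI 0.66 to 0.91, edgeR adjusted p = 4.1e-08). Nhp2 went from 90.1, 84.9 and 92.3 to 150, 145 and 148 FPKM, at 0.72 (95% CI 0.59 to 0.84, edgeR adjusted p = 1.1e-07). Both genes thus had the largest rises with either siRNA. Nop56, at 0.44, Dkc1, at 0.33, Gar1, at 0.30, Ncl, at 0.29, Npm1 and Fbl, both at 0.24, and Polr1a, at 0.19, followed. Fbl lost the call without siPRMT1 day 1 replicate 2 (0.17) or siPRMT1 day 3 replicate 2 (0.21), and Npm1 lost it without siPRMT1 day 1 replicate 1 (0.21) and with all 12 libraries in 1 model (0.25, edgeR adjusted p = 0.0797). Without siPRMT1 day 3 replicate 1, the highest library, Npm1 passed at 0.13.

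Whether the knockdown effect differed between the days was tested by the interaction of siRNA and day over 14612 genes, of which 7.69% (1123) had a positive and 4.63% (676) a negative interaction. With library totals in place of TMM the split was 802 and 1002, and Fbl passed at -0.53. Among the 10 genes only Fbl passed, with an interaction of -0.47 on the log2 scale (95% CI -0.74 to -0.19, edgeR adjusted p = 0.028). Its mean rose from 87.1 ± 7.74 to 149 ± 11.4 FPKM in siCtrl and from 109 ± 10.5 to 130 ± 8.27 in siPRMT1 (SD, n = 3). The knockdown libraries were therefore higher at day 1 and lower at day 3, although neither difference passed on its own. The interaction passed with DESeq2 and with each other normalization and filter tried, but in only 6 of the 12 fits that left out 1 library, in which it ran from -0.57 to -0.39. The call was lost without siCtrl day 1 replicate 1, siPRMT1 day 1 replicate 1 or 3, siCtrl day 3 replicate 2, or siPRMT1 day 3 replicate 1 or 2, where the edgeR adjusted p ran from 0.0547 to 0.0937. Npm1 had the opposite sign, at 0.38 (95% CI 0.04 to 0.73, edgeR adjusted p = 0.134), and passed at 0.51 without siCtrl day 1 replicate 3. By that omission the interaction of Fbl was -0.57, and those of the other 8 genes ran from -0.20 to 0.26 without passing. The interval of Nhp2 was -0.36 to 0.05 and that of Nolc1 -0.31 to 0.14.

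Since Nhp2 and Nolc1 rose most and in parallel, their promoter sequences were read beside that of Ncl. Ncl did not pass in siCtrl but rose in siPRMT1, at 0.29, so these sequences do not separate rising from unchanged genes. The 250 bases before the RefSeq start (GRCm38.p6) are given from 5′ to 3′ along the gene. Capitals mark GGGCGG (a GC box, bound by Sp factors), CCGGAAG (the core bound by ETS factors) and CCAAT (the CCAAT box), each read on both strands, so that their reverse complements also count. In Nhp2 CCAAT matches on opposite strands overlap at one place.
Nhp2, chr11:51619523-51619772, strand +: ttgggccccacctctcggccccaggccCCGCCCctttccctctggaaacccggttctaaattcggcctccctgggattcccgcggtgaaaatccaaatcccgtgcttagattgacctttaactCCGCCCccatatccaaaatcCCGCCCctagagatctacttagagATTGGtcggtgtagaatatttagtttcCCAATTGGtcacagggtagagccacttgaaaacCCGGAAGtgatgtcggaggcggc
Nolc1, chr19:46075597-46075846, strand +: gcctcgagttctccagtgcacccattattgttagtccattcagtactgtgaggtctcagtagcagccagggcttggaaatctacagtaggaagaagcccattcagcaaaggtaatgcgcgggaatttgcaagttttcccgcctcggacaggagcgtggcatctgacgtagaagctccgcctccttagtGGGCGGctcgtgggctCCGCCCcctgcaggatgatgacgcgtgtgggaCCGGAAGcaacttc
Ncl, chr1:86359456-86359705, strand -: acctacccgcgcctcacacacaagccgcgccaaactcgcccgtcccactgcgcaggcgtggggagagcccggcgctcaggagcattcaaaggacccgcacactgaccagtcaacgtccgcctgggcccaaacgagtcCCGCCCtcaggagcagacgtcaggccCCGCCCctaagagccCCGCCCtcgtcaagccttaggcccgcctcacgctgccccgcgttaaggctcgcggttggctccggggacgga
Nhp2 held 3 GC boxes, 1 ETS core and 3 CCAAT matches. Nolc1 held 2 GC boxes and 1 ETS core, and Ncl held 3 GC boxes. The 250 bases read for Nop58, which passed with neither siRNA, held 1 GC box. They end at 59685005, past the first base of the gene in the count table (59684951). Those of Nop56 likewise end at 130274411, past its first base (130274367). RefSeq windows from 250 bases before to 50 after the start were at hand for 8 of the 10 genes, all but Fbl and Npm1. The E-box CACGTG, the motif of Myc and Max, was in 0 of these 8 windows and in 7.15% of the 32851 windows of the table. CCGGAAG was in 3 of the 8 (Gar1, Nhp2 and Nolc1) and in 8.86% of all. GGGCGG was in 5, against 35.7%, and CCAAT in 4, against 37.4%. The last 3 motifs were chosen after the sequences were seen, and a match describes the letters, not a bound site.

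The remaining biogenesis machinery was read from 5 further lists with 130 genes tested. From day 1 to day 3 in siCtrl, 80 of these (61.5%) rose and 5 (3.85%) fell, against 30.2% and 28.7% of all genes. Their median log2 fold change was 0.34, and the counts were 85 and 10 without siCtrl day 1 replicate 3. In siPRMT1, 91 (70%) rose and 7 (5.38%) fell, against 32.2% and 31.2% of all genes, with the same median. The small subunit processome, which builds the 40S precursor, had 32 of 47 genes (68.1%) higher and 0 lower in siCtrl, and 38 higher and 0 lower in siPRMT1. Bysl, a late 40S assembly factor, rose from 17.8, 16.3 and 19.4 to 44.9, 47.2 and 44.6 FPKM in siCtrl, at 1.28 (edgeR adjusted p = 1.7e-06). Rcl1, which acts at an early cleavage of the precursor, had the smallest p of this list in siPRMT1, at 0.77. Among the 60S assembly factors 37 of 52 (71.2%) rose and 3 fell in siCtrl, and 41 rose and 2 fell in siPRMT1. Sdad1 had the smallest p of these in siCtrl, with a 2.16-fold rise that was not the largest, and the rRNA methyltransferase gene Nop2 had it in siPRMT1, at 0.91.

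The list of RNA polymerase I and its factors, which also holds shared polymerase subunits (such as Polr2e and Polr2h) and the termination factor gene Ttf1, was more divided. In siCtrl 8 of 19 (42.1%) rose and 1, Ttf1, fell, where 30.2% of all genes rose and 28.7% fell. In siPRMT1 9 (47.4%) rose and 3 fell (Taf1b, Taf1d and Ttf1), where 32.2% of all genes rose and 31.2% fell. Cd3eap, a polymerase I subunit gene, rose from 9.68, 10.3 and 13.2 to 28.2, 28.3 and 25.3 FPKM in siCtrl, at 1.23 (edgeR adjusted p = 2.3e-05), and by 0.96 in siPRMT1. The list of the box C/D particle and its assembly had 3 of 8 (37.5%) higher and 1 lower with either siRNA, near the share of higher genes overall. Nhp2l1 and Ruvbl1 were higher with both, Ruvbl2 in siCtrl alone and Znhit3 in siPRMT1 alone. The lower gene was Znhit6 in siCtrl and Pih1d1 in siPRMT1. Nhp2l1, its core protein that binds the RNA kink, was higher by 0.65 in siCtrl and by 0.21 in siPRMT1. The ATPase gene Ruvbl1 had the smallest p in siPRMT1, at 0.57. Of the 4 further box H/ACA genes, none passed in siCtrl, and Wrap53, which escorts these RNAs to the Cajal body, was lower in siPRMT1 at -0.56. The rise of Dkc1, Gar1 and Nhp2 thus stood beside no passing rise among the other genes of that list.

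**Figure D3:**
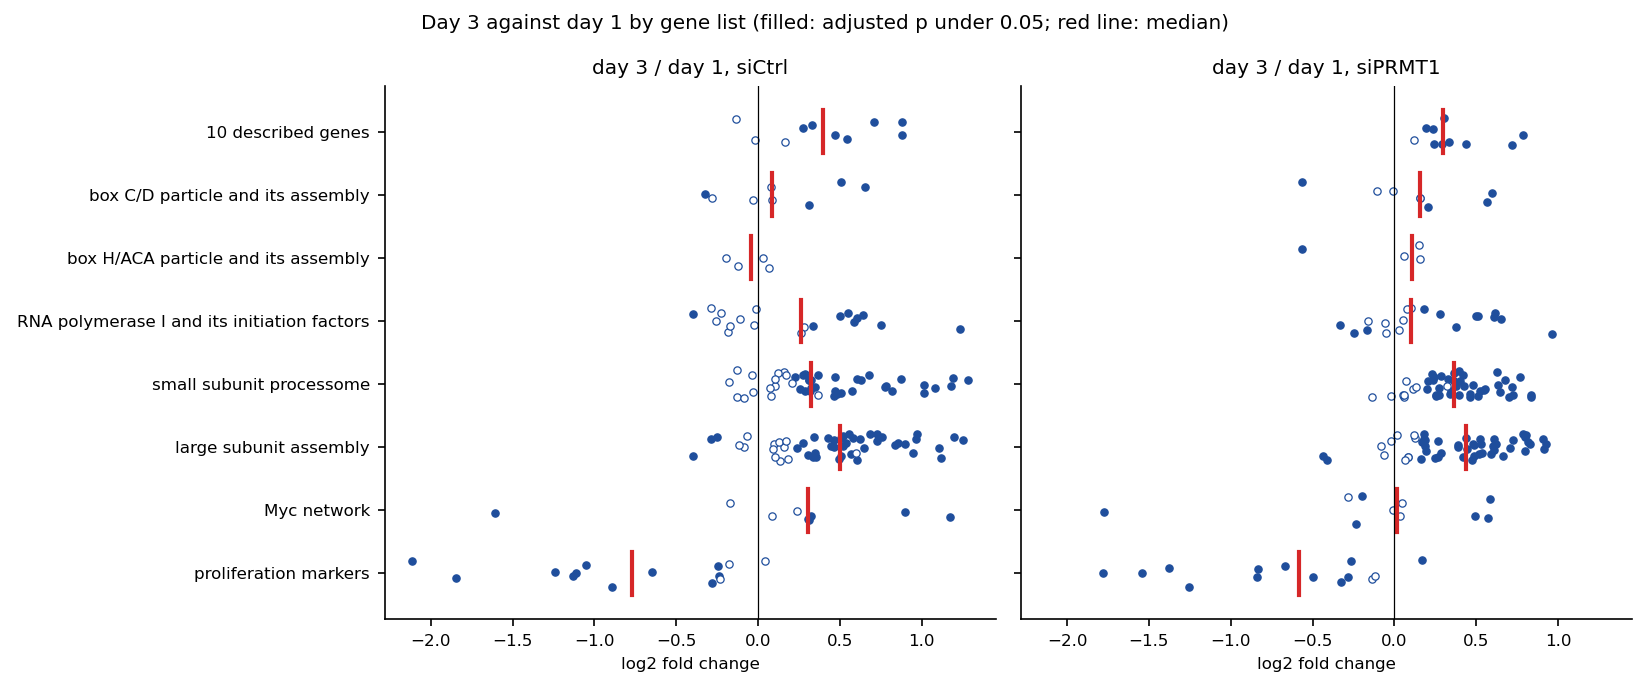
Log2 fold change (x axis) at day 3 against day 1 for each tested gene (points; filled at an adjusted p under 0.05) of the 10 genes and 7 further lists, with the list median in red, siCtrl at left, siPRMT1 at right. Medians of the processome (0.32 and 0.37) and of the large subunit list (0.50 and 0.44) lie to the right of 0, those of the proliferation markers (-0.77 and -0.59) to the left.

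Proliferation markers went the other way over the same interval. In siCtrl 11 of 14 (78.6%) fell and none rose, with a median of -0.77, where 28.7% of all genes fell. Top2a, the topoisomerase of dividing cells, fell from 228, 212 and 168 to 51.9, 44.8 and 50.9 FPKM, at -2.11 (edgeR adjusted p = 2.3e-07). In siPRMT1 11 fell, where 31.2% of all genes did, and 1, the replication helicase gene Mcm6, rose. Mki67 had the smallest p there, at -1.38, while Top2a had a larger fall, at -1.78. The summed FPKM of the 14 markers ran from 1159 to 1253 in siCtrl at day 1 and from 758 to 783 at day 3. Myc, a regulator of many biogenesis genes, went from 52.1, 61.3 and 62.4 to 74.8, 81 and 75.4 FPKM in siCtrl, at 0.33 (edgeR adjusted p = 0.0124), whereas in siPRMT1 it had 71.9, 70.8 and 83.6 at day 1 and 67.8, 79 and 80.2 at day 3, at -0.01. Its interaction, -0.33, did not pass (edgeR adjusted p = 0.111). Mxi1, a repressor that competes for the partner Max, had the smallest p of the Myc network in siCtrl, at 1.17, where Mxd3, another such repressor, was lower at -1.61. In siPRMT1 Mxd3 had the smallest p, at -1.77. The part of adipocyte markers, proliferation and Myc in the rise of the 10 genes was not tested.

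With the knockdown at day 1, 4 of the 130 further genes (3.08%) were higher (Bysl, Rrp12, Noc2l and Mdn1) and 1 (0.769%) was lower, against the 3.22% and 4.38% of all genes given above. The lower one was Rrn3, the factor that recruits RNA polymerase I to its promoter, with 40.5, 38.7 and 41.7 FPKM in siCtrl and 28.1, 28.7 and 28.4 in siPRMT1, at -0.55 (edgeR adjusted p = 0.0035). Mdn1, the ATPase that remodels the 60S precursor, had 6.93, 6.41 and 5.41 against 9.63, 10.5 and 9.35 FPKM, at 0.60, and the 40S export factor gene Rrp12 was higher at 0.53. The groups did not overlap in these 3 genes. Without siCtrl day 1 replicate 3 the counts became 38 higher and 10 lower. The higher genes numbered 0 without any 1 of the siPRMT1 day 1 libraries or without siCtrl day 1 replicate 2, and 2 without siCtrl day 1 replicate 1, whereas Rrn3 passed in all 6 of these fits. At day 3, 6 (4.62%) were higher and 3 (2.31%) lower, against 7.54% and 8.94% of all genes. The higher genes numbered 0 without siPRMT1 day 3 replicate 1 or siCtrl day 3 replicate 2, 1 without siPRMT1 day 3 replicate 2 and 2 without siCtrl day 3 replicate 3. The lower ones numbered 0 without siPRMT1 day 3 replicate 2 and 1 without siCtrl day 3 replicate 2. Rrn3 was again lower, at -0.29 (edgeR adjusted p = 0.0086), while 2 genes of the polymerase I list, Twistnb and Ubtf, were higher. In the box C/D list the chaperone subunit gene Pih1d1 was lower at -0.34, while Znhit6 and Ruvbl1 (0.26) were higher. Naf1, an assembly factor of H/ACA particles, was higher at 0.25, and the processome gene Utp20 was higher at 0.23. Of the 6 day 3 fits that left out 1 library, Rrn3 passed in 5, Pih1d1 in 4, Ruvbl1 in 1, Utp20 in 1 and Naf1 in 0. In the interaction 4 of the 130 (3.08%) were positive (Znhit3, Nol11, Dcaf13 and Tsr1) and 7 (5.38%) negative, against 7.69% and 4.63% of all genes. These counts became 9 and 32 without siCtrl day 1 replicate 3. The 7 negative genes had the sign seen for Fbl, and those named by rule were Rrp12 (-0.64), Bysl (-0.60), Noc2l (-0.54) and Nhp2l1 (-0.44). The 4 positive genes had the opposite sign. Of the 14 proliferation markers, 2 (14.3%) were lower at day 1, Ccnb1 (-0.27) and Cdk1 (-0.26), and 6 had a positive log2 fold change. The list median was -0.03, and each of the 2 passed in 1 of the 6 fits that left out 1 library. At day 3 Mxi1 was lower (-0.47) and Mcm6, the only marker that passed, was higher (0.27). Mxi1 passed in 6 of the 6 day 3 fits that left out 1 library and Mcm6 in 4. In the interaction Mxi1 (-0.59) and Cdk1 (0.47) had the smallest p of their lists.

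Across the 12 libraries the genes followed more than one course, described here without a test since the libraries share conditions and depth. Nhp2 and Nolc1 had a Pearson r of 0.97 on log2 CPM. Among Fbl, Nop56, Gar1, Nhp2, Nolc1 and Polr1a the 2-gene correlations ran from 0.68 to 0.97, and among Ncl, Nop58 and Npm1 from 0.77 to 0.78. Between these they ran from -0.30 to 0.60. Dkc1 had values of 0.56 to 0.80 with the former and of 0.39 to 0.84 with the latter. The grouping was made after the values were seen, and the low values of Ncl, Nop58, Npm1 and Dkc1 in siCtrl day 1 replicate 3 enter the correlations that involve those genes. Among 9315 further genes that reached 10 CPM on average, those most like the mean z-score of the 10 were Prkab2, Ddx46, Hnrnpd, Pus7 and Gspt1, each with a Pearson r of 0.98. They encode a subunit of AMP-activated kinase, an RNA helicase of splicing, an RNA-binding protein of AU-rich elements, a pseudouridine synthase and a translation termination factor. All 5 were higher at day 3 than at day 1 with either siRNA, by 0.41 to 0.78 in siCtrl and 0.48 to 0.78 in siPRMT1, and none passed in a knockdown comparison. Since they were picked for their likeness to the 10 in the same libraries, this course follows from the choice and is no separate result.

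**Figure D4:**
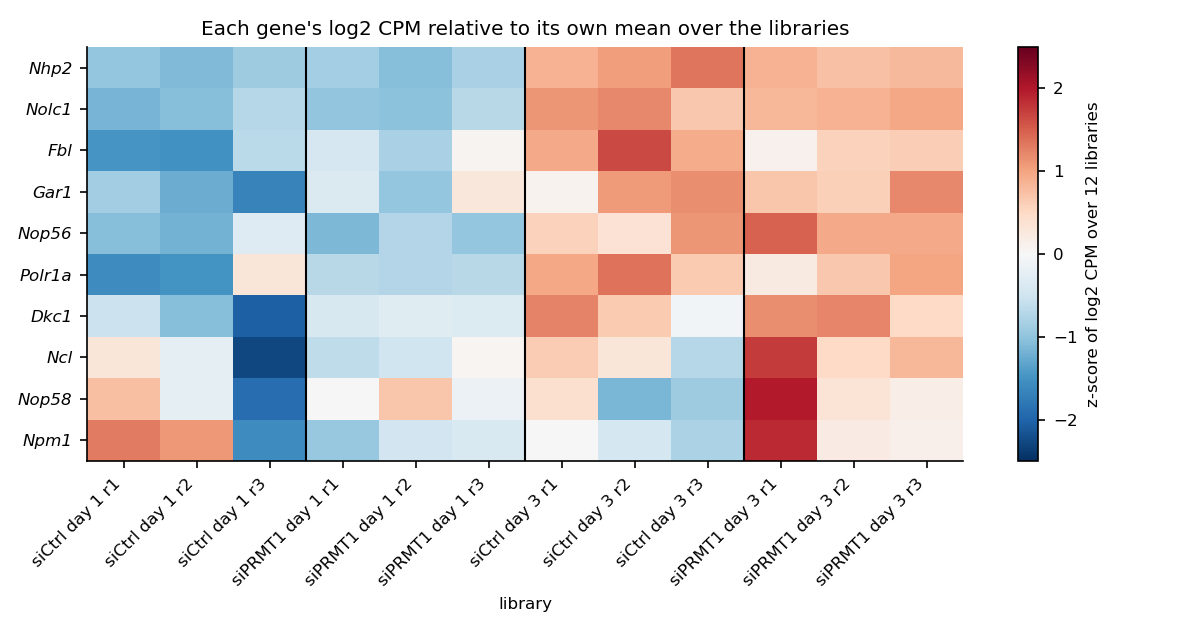
Z-score of log2 CPM (colour) of each gene (rows) in each library (columns, r1 to r3 are replicate numbers). Lines separate the conditions. The rows of Nhp2, Nolc1 and Nop56 change from blue to red between the days in every library. Those of Fbl, Gar1, Polr1a and Dkc1 do so with exceptions, such as Polr1a (0.307) in siCtrl day 1 replicate 3. Ncl, Nop58 and Npm1 are lowest in siCtrl day 1 replicate 3 and highest in siPRMT1 day 3 replicate 1.

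In the count table's GRCm38 positions, 3 of the genes host small nucleolar RNAs in their introns on the same strand. Ncl (chr1:86344719-86359455) holds Snora75 and Snord82, Nop56 (chr2:130274367-130279313) holds Snord110 and Snord57, and Nop58 (chr1:59684951-59711510) holds Snord70 and Snord11. These RNAs are 53 to 116 bases long and are released from the spliced intron. They received 0 to 14 counts per library, which in libraries made from mRNA does not measure them, and no fold change was computed. Nop56, Dkc1 (chrX:75095854-75109777) and Nhp2 (chr11:51619773-51623714) each share exon bases with a gene on the opposite strand, Idh3b, Mpp1 and Rmnd5b. The strand setting of the counting is not given in the sources used here, so reads from the shared bases cannot be told apart.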

How the data were processed

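Poly(A) RNA of 3T3-L1 cells was sequenced on an MGI instrument, and 12 libraries were used. The submitters' processing notes name cutadapt 1.11, HISAT2 2.1.0, RSEM 1.2.6 and the build mm10; which tool counted the reads, and with which strand setting, is not given in the sources used here. The deposited counts are whole reads per gene without normalization. The authors' FPKM follow from the counts, the gene length and the library total, and were recomputed to within 0.005. Which of the siRNAs against PRMT1 was used is not given either.

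Each comparison was fitted on the counts of the libraries involved with edgeR 4.0.16 in R 4.3.3 (quasi-likelihood test, TMM normalization, filterByExpr, Benjamini-Hochberg adjustment over all genes tested). A gene passed at an adjusted p under 0.05, at any fold. Confidence intervals (95%) use a standard error derived from the log2 fold change and the F value of the test. Their degrees of freedom are the total of that test, residual plus prior. The interaction used all 12 libraries. All 10 genes passed the filter, with 606 to 40005 counts per library. The genes and lists were chosen with earlier results of these data known. Named besides the members are Prmt1, Myc, the gene with the smallest p of each list in each comparison where it passed, the 5 most similar genes, and genes inside members, apart from Idh3b, Mpp1 and Rmnd5b, which overlap members. Where a count of 5 or fewer is given, its genes may be named too, chosen after their values were seen. Protein sequences were not analysed here. Promoter sequences come from RefSeq (GRCm38.p6). The fits were tested on simulated data with the same dispersion for all genes and no library that stood apart. That test therefore does not cover the uneven spread of these libraries. Alternatives were DESeq2 1.42.0, RLE, library totals, no filter, at least 10 counts in every library, a replicate block, all 12 libraries in 1 model, an absolute log2 fold change over 0.5, and leaving out each library.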

Additional observations from a re-analysis of the deposited data

Results flagged for a closer look

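The knockdown effect differed between day 1 and day 3 by the interaction test for 9 of the genes named, each at an edgeR adjusted p under 0.05 over all genes tested. Fbl had an interaction of -0.47 on the log2 scale, and its knockdown libraries lay above the controls at day 1 and below them at day 3. The processome genes Rrp12 (-0.64) and Bysl (-0.60), the 60S factor gene Noc2l (-0.54), the box C/D core gene Nhp2l1 (-0.44) and the Myc antagonist Mxi1 (-0.59) had the same sign. Cdk1 (0.47), Ccnb1 (0.41) and Mcm6 (0.35), which act in cell division and replication, had the opposite sign. They were the 3 of the 14 proliferation markers (21.4%) that passed. Only 8 of the 14 had a positive value, and the list median was 0.11. The 9 genes are Fbl and genes named by rule. That rule takes the gene with the smallest p of each list in each comparison, the interaction included, where it passes. The count of 9 therefore follows in part from the rule and is no separate result. Of the 130 further biogenesis genes, 4 (3.08%) had a positive interaction (Znhit3, Nol11, Dcaf13 and Tsr1) and 7 (5.38%) a negative one. The shares over all genes were 7.69% and 4.63%. Of the 12 fits that left out 1 library, Rrp12, Bysl and Mxi1 passed in 12, Noc2l in 10, Cdk1 in 8, and Fbl, Nhp2l1, Ccnb1 and Mcm6 in 6. Groups of 3 libraries were too small for a test of single outlying libraries.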

How the results depend on the processing

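Of the members' log2 fold changes, 329 of 340 values under other tools, scalings and filters and 329 of 360 without 1 library kept their direction and their side of the threshold. Those that reversed were near 0. At day 1 they were Nop56 (-0.00 with at least 10 counts in every library, -0.02 with all 12 libraries, -0.03 to 0.06 without 1 library), Ncl (-0.07 to 0.21) and Nop58 (-0.00 to 0.26). At day 3 they were Gar1 (-0.07 to 0.08) and Nolc1 (-0.11 to 0.01), and for day 3 against day 1 in siCtrl Nop58 (0.05 with library totals, -0.16 to 0.08 without 1 library). The causes of these changes and of those that follow were not tested.

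A further limit of 0.5 on the absolute log2 fold change left 267 genes higher and 220 lower at day 1, 399 and 534 at day 3, 2705 and 2481 for the days in siPRMT1, and 697 with a positive interaction. It left 4 members higher for the days in siCtrl, 2 in siPRMT1 and 0 in the interaction. Of the further biogenesis genes it left 2 higher at day 1, 0 higher and 0 lower at day 3, 49 higher and 0 lower for the days in siCtrl, 43 and 2 in siPRMT1, and 2 and 4 in the interaction. For these further genes DESeq2 gave 8 higher and 2 lower at day 1 and 5 lower at day 3. Library totals gave 8 higher at day 1, 3 lower for the days in siCtrl, and 1 positive and 11 negative interactions, and 368 genes lower at day 1. All 12 libraries in 1 model gave 1183 genes lower at day 1, and of the further genes 7 higher and 3 lower at day 1, 0 higher at day 3 and 8 lower for the days in siCtrl. RLE gave 2 positive interactions among them. At least 10 counts in every library gave 2 lower at day 1 and 1 positive interaction. With no filter 3 members and 13 further genes were higher at day 3, and 1 member had a positive interaction.

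Replicate numbers are shared between the groups, but in no comparison did every pair of libraries with the same number deviate together (correlations from -0.17 to 0.22, threshold 0.1), and at most 3 of 6 libraries were closest to their own number. The numbers were therefore not treated as pairs. The replicate block gave 2 members higher, Nop58 (0.26) and Npm1 (0.21), and 1 lower, Fbl (-0.21), at day 3, with 14 further genes higher and 9 lower and 1523 and 1693 of all genes, and 2 further genes lower at day 1. Its other counts lay within 1.5 times those without it.

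Without 1 library, members ranged from 0 to 1 in either direction at day 1, from 0 to 1 higher at day 3, from 0 to 1 lower for the days in siCtrl and from 0 to 1 in either direction of the interaction. All genes ranged from 61 to 2047 higher and 70 to 2086 lower at day 1 (the low values without siPRMT1 day 1 replicate 3, the high ones without siCtrl day 1 replicate 3), from 638 to 954 and 777 to 1211 at day 3, and from 671 to 1760 and 359 to 1974 in the interaction. Further genes ranged from 0 to 38 higher and 1 to 10 lower at day 1, from 0 to 5 and 0 to 4 at day 3, from 2 to 10 lower for the days in siCtrl, and from 0 to 9 and 2 to 32 in the interaction.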
